A study of Homo sapiens with 12 samples.

Results

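The RUNX family is made up of the DNA-binding factors RUNX1, RUNX2 and RUNX3, and their shared partner is encoded by *CBFB*. These 4 genes were found among the 57820 rows of the expression table by their symbols, 1 row each, and all 4 are described here. They were chosen with the lower *RUNX2* level in both lung-selected populations already known from these libraries, so the members' differences between groups are given as a description, without p-values.

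RNA was sequenced from 12 libraries of cultured human esophageal squamous cell carcinoma (ESCC) cells. K30LM3 cells were recovered from lung nodules after 3 rounds of tail vein injection of KYSE30 cells into SCID/Beige mice, and K30P cells are the parental KYSE30 culture, labelled K30. K450LM2 cells came from 2 rounds of the same selection of KYSE450 cells, and K450P cells are the parental KYSE450 culture, labelled K450. Each group has 3 libraries, and each selected population is 1 population. According to the methods the injected cells carried a lentiviral firefly luciferase vector with G418 resistance. The paper gives the names K30P and K450P to parental cells that express luciferase, so the vector is not particular to the selected populations. G418 was also applied to the cultured nodules to keep tumor cells apart from stromal cells. The labels and methods call the libraries biological replicates without saying that they came from separate cultures, so errors and p-values reflect how far these libraries lay apart, and that spread may be technical.

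Every RUNX protein carries a Runt domain, which binds DNA at the short motif TGTGGT and contacts CBFβ, the protein made from *CBFB*. CBFβ does not itself touch the DNA and raises the affinity of the RUNX subunit for its site. RUNX1 is best known for blood cell formation, RUNX2 for bone formation, and RUNX3 for T lymphocytes, sensory neurons and gastrointestinal epithelium, and all are transcribed in various epithelia as well. In mammals each RUNX gene has a distal promoter, P1, and a proximal promoter, P2, that give proteins with different N-termini.

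The promoter sequences are shown because *RUNX2* is the member with a difference of over 2-fold in both lines, and because its distal promoter carries the family's own motif. RefSeq windows (GRCh38.p14, 250 bases before to 50 bases after a start) were at hand for both start sites of *RUNX2* and *RUNX3* and for 1 of *RUNX1*. The 300-base window at the distal *RUNX2* start held 4 copies of TGTGGT or its complement ACCACA, and 1 of TGCGGT or ACCGCA. Of 35116 windows searched on both strands, 13.1% held at least 1 copy of TGTGGT and 5 windows (0.0142%), this one included, held 4 or more. The 250 bases before that start, on the plus strand of chromosome 6, are given with ACCACA in capitals.
RUNX2 distal promoter, chr6:45328080-45328329: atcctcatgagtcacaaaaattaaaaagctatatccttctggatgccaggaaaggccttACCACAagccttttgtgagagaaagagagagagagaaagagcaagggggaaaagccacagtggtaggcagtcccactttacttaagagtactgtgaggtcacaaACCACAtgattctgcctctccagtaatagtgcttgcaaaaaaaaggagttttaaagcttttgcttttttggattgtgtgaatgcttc

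The other 2 copies lie just after the start, in a run of 18 bases that the distal window of *RUNX3* also holds. Each line shows 30 bases in the direction of its gene, with ACCACA in capitals.
RUNX2, chr6:45328338-45328367, plus strand: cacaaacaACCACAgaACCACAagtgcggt
RUNX3, chr1:24965120-24965149, minus strand: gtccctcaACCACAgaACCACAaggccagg

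The proximal windows of *RUNX2* and *RUNX3* and the *RUNX1* window held neither TGTGGT nor TGCGGT in these letters. Their GC content was 72.0% to 76.0%, against 42.7% in the distal *RUNX2* window and 66.3% in the distal *RUNX3* window. The expression table gives 1 value per gene, so RNA from P1 and P2 was not measured separately.

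The levels are FPKM, fragment counts scaled by transcript length and by the depth of the library, as deposited. From the spacing of the lowest values, 1 FPKM stood for an estimated 21.6 to 29.6 fragments per kilobase of transcript, depending on the depth of the library. Libraries of the same group correlated at 0.9825 to 0.9857 (Pearson's r over 15488 genes). Of 12 epithelial markers, 11 reached a mean of 1 FPKM in K30LM3 and 10 in K30P, and all 12 in K450LM2 and K450P. Among them *KRT5*, a basal squamous keratin, averaged 16.0 FPKM in K30LM3 and 0.103 FPKM in K30P, against 5460 FPKM in K450LM2 and 6520 FPKM in K450P. Other markers went the other way. *TP63* averaged 8.37 FPKM in K30LM3 and 22.1 FPKM in K30P, and *KRT14* 1920 FPKM in K450LM2 and 595 FPKM in K450P. By the limma comparison described below, 3 of 11 tested markers were called higher and 1 lower in K30LM3 (36.4%, against 8.39% of all tested genes). Of 10 leukocyte markers, 1 (*CD68*) reached a mean of 1 FPKM, and the pan-leukocyte gene *PTPRC* averaged at most 0.143 FPKM in any group. The summed leukocyte markers ran from 9.24 to 10.4 FPKM in K30LM3, against 8.39 to 11.4 FPKM in K30P, and from 3.97 to 5.33 FPKM in K450LM2, against 2.62 to 3.09 FPKM in K450P. Fibroblast markers, of which 2 to 4 of 10 reached 1 FPKM, summed to 3.86 to 5.75 FPKM in K30LM3, against 6.83 to 8.98 FPKM in K30P, and to 11.6 to 12.5 FPKM in K450LM2, against 7.55 to 8.47 FPKM in K450P. They thus ran with *RUNX2* in KYSE30 and opposite to it in KYSE450, and their part in the *RUNX2* values was not tested. Of 8 osteoblast markers 1 (*COL1A1*) reached 1 FPKM, and they summed to 2.52 to 4.54 FPKM in K30LM3, against 5.85 to 7.34 FPKM in K30P, and to 3.67 to 4.03 FPKM in K450LM2, against 3.56 to 3.97 FPKM in K450P. Of 5 endothelial markers 1 reached 1 FPKM in K30LM3 and K30P and 0 in K450LM2 and K450P. Their sum was 2.76 to 3.51 FPKM in K30LM3, against 5.41 to 6.63 FPKM in K30P, and 0.21 to 0.27 FPKM in K450LM2, against 0.44 to 0.57 FPKM in K450P. The endothelial sum was thus lower beside *RUNX2* in both lines and the osteoblast sum in KYSE30, and their part in the *RUNX2* values was not tested either. In KYSE30 the endothelial sum was mostly *CDH5* (3.12 FPKM in K30LM3, 5.98 FPKM in K30P). In KYSE450 *VWF* averaged 0.103 FPKM in K450LM2 and 0.453 FPKM in K450P, while *CDH5* went from 0.00667 FPKM in K450P to 0.11 FPKM in K450LM2. *COL1A1* (3.1 FPKM in K30LM3, 5.66 FPKM in K30P) is counted in both the fibroblast and the osteoblast sum.

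*RUNX1* was the most abundant RUNX gene in every library. It had 9.95, 9.69 and 9.4 FPKM in K30LM3, against 7.42, 8.06 and 7.31 FPKM in K30P. In KYSE450 it had 22.96, 24.43 and 22.69 FPKM in K450LM2, against 21.05, 21.14 and 22.21 FPKM in K450P. All 3 selected libraries lay above all 3 parental libraries in both lines, and the 4 groups kept separate ranges in the order K450LM2, K450P, K30LM3 and K30P.

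*RUNX2*, the master regulator of osteoblast differentiation, had 1.25, 1.5 and 1.55 FPKM in K30LM3, against 3.38, 3.5 and 3.37 FPKM in K30P. It had 0.62, 0.54 and 0.69 FPKM in K450LM2, against 3.59, 3.29 and 2.44 FPKM in K450P. The selected libraries were below the parental libraries in both lines without overlap, the ranges of the selected populations were also separate from each other, and the parental ranges overlapped. The group mean was 1.43 ± 0.161 FPKM (SD, n = 3) in K30LM3 and 3.42 ± 0.0723 FPKM in K30P, and 0.617 ± 0.0751 FPKM in K450LM2 and 3.11 ± 0.597 FPKM in K450P. K450P replicate 3 was the lowest parental library, at 2.44 FPKM. In a bulk culture fewer cells that make a transcript and less transcript per cell cannot be told apart.

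*RUNX3*, a factor with roles in T cells and in epithelial growth control, was low throughout. It had 1.99, 2.07 and 1.9 FPKM in K30LM3, against 1.32, 1.87 and 1.2 FPKM in K30P, ranges that did not overlap although K30P replicate 2, at 1.87 FPKM, lay next to the lowest K30LM3 library. In KYSE450 the ranges overlapped, with 1.75, 2.05 and 1.92 FPKM in K450LM2, against 2.2, 2.26 and 1.88 FPKM in K450P. Apart from 2 K30P libraries all values lay between 1.75 and 2.26 FPKM.

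*CBFB* was the most abundant of the 4 genes. It had 34.64, 39.82 and 43.38 FPKM in K30LM3, against 24.18, 23.8 and 24.83 FPKM in K30P, 2 ranges that were far apart. It had 36.28, 39.42 and 37.35 FPKM in K450LM2, against 36.04, 35.29 and 32.95 FPKM in K450P, which were separated only narrowly. K30P was therefore the low group, and the range of K30LM3 contained that of K450LM2 and overlapped that of K450P.

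**Figure D1:**
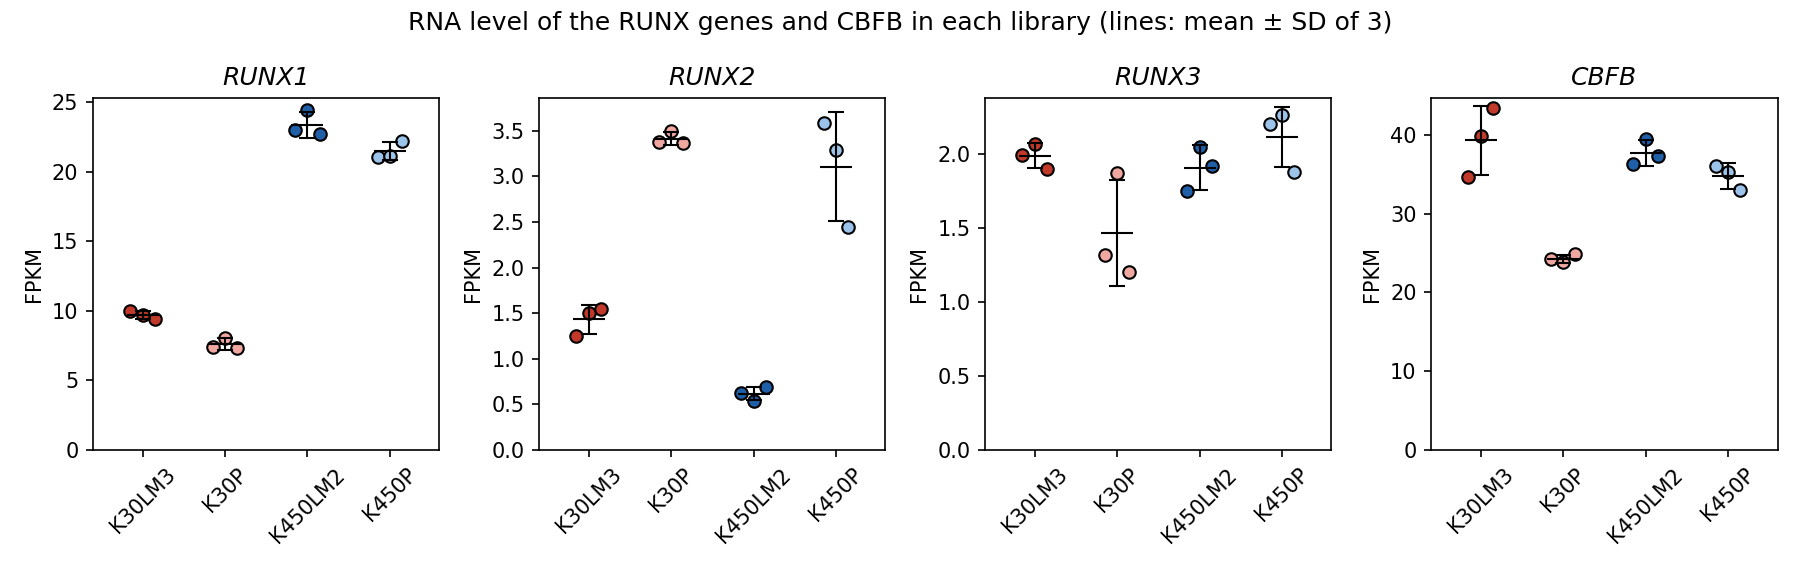
Points are the FPKM of single libraries, and lines are the mean ± SD of 3 libraries, for each group on the x axis. *RUNX2* lies at 1.25 to 1.55 FPKM in K30LM3 and 0.54 to 0.69 FPKM in K450LM2, below both parental groups, while *CBFB* is lowest in K30P.

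To compare each selected population with its own parental cells, all genes with at least 1 FPKM in at least 3 of the 6 libraries of a line were fitted with limma on log2(FPKM + 0.1). Genes were called when they changed by more than 2-fold and their p-value, adjusted by the Benjamini-Hochberg method, was under 0.05. On this scale the change of low genes is understated. Of the 4 members, *RUNX2* alone passed both thresholds in K30LM3, where 8.39% of 14197 tested genes were called, 2.61% as higher and 5.78% as lower. *RUNX2* was also the 1 member of 4 past both thresholds in K450LM2, where 3.28% of 13819 tested genes were called, 2.0% as higher and 1.27% as lower. In both lines together 22 of 12650 genes (0.174%) were called lower and 0.237% were called higher. *RUNX2* was picked for this pattern, so nothing is read from these counts.

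The log2 difference of *RUNX2* was −1.20 (standard error 0.131) for K30LM3 minus K30P and −2.15 (standard error 0.197) for K450LM2 minus K450P. By the ratio of mean FPKM, without a pseudocount, *RUNX2* was 2.38-fold lower in K30LM3 and 5.05-fold lower in K450LM2. With a pseudocount of 1 these were −0.86 and −1.34, and after quantile normalization the KYSE30 value was −0.98, so under both settings *RUNX2* missed the 2-fold threshold in K30LM3. The KYSE450 change minus the KYSE30 change was −0.95 (standard error 0.218), or −0.47 with a pseudocount of 1. Among all tested genes, 4.02% had a lower log2 difference than *RUNX2* in K30LM3 and 0.311% in K450LM2.

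For *CBFB* the log2 difference was 0.69 (standard error 0.0775) in K30LM3 and 0.12 (standard error 0.0521) in K450LM2. That of *RUNX1* was 0.35 (standard error 0.067) in K30LM3 and 0.12 (standard error 0.0508) in K450LM2. *RUNX3* had 0.44 (standard error 0.188) in K30LM3 and −0.14 (standard error 0.139) in K450LM2, where the value was −0.08 without K450LM2 replicate 1, −0.09 without K450P replicate 2 and −0.22 without K450P replicate 3. All of these stayed below 2-fold. The libraries of the selected and parental groups did not overlap for 4 of 4 members in KYSE30, where 66.9% of tested genes showed this, and for 3 of 4 in KYSE450, where 40.3% did. The median log2 difference over all tested genes was −0.05 in K30LM3 and 0.02 in K450LM2.

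Set against each other, the parental lines differed most in *RUNX1*. The K450P mean was 21.5 ± 0.645 FPKM and the K30P mean 7.6 ± 0.405 FPKM (SD, n = 3 each), a log2 difference of 1.49 (standard error 0.0614), against a median of −0.14 over all 14778 tested genes. *RUNX1* was the 1 member of 4 past both thresholds, where 35.2% of tested genes were called, 13.3% as higher and 21.9% as lower in K450P. The log2 difference was 0.52 for *CBFB* (standard error 0.0474) and 0.52 for *RUNX3* (standard error 0.184), and −0.15 for *RUNX2* (standard error 0.15). The *RUNX2* value turned to 0.01 without K450P replicate 3, and to 0.19 after quantile normalization and 0.08 after median centering, scalings that moved the median of all genes to 0.05 and 0.09, so no direction is given for it. The ranges were separate for *RUNX1*, *RUNX3* and *CBFB*, as for 82.5% of tested genes.

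FPKM are scaled by transcript length, so the levels of the 3 RUNX genes can be added. Their sum was nearly level within a line, at 13.1 ± 0.219 FPKM in K30LM3 and 12.5 ± 0.834 FPKM in K30P, and at 25.9 ± 0.984 FPKM in K450LM2 and 26.7 ± 0.155 FPKM in K450P (SD, n = 3 each), with overlapping ranges in both lines. The make-up of the sum differed. *RUNX2* accounted for 11.0 ± 1.33% in K30LM3 and 27.4 ± 1.22% in K30P. It accounted for 2.39 ± 0.368% in K450LM2 and 11.6 ± 2.17% in K450P. The share of *RUNX1* was 73.9 ± 1.34% in K30LM3 and 60.9 ± 0.801% in K30P, and 90.2 ± 0.501% in K450LM2 and 80.4 ± 2.86% in K450P. The ratio of *RUNX1* to *RUNX2* FPKM was thus 6.83 ± 1.0 to 1 in K30LM3 and 2.22 ± 0.0709 to 1 in K30P, and 38.4 ± 6.29 to 1 in K450LM2 and 7.13 ± 1.73 to 1 in K450P.

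The level of *CBFB* exceeded the summed RUNX level in every library. The ratio was 3.0 ± 0.375 in K30LM3 and 1.95 ± 0.163 in K30P, and 1.46 ± 0.0222 in K450LM2 and 1.3 ± 0.0533 in K450P (SD, n = 3 each). Ranges were separate in both lines, from 2.63 to 3.38 in K30LM3 against 1.77 to 2.09 in K30P and from 1.43 to 1.48 in K450LM2 against 1.24 to 1.34 in K450P. These are ratios of RNA and say nothing of the proteins.

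**Figure D2:**
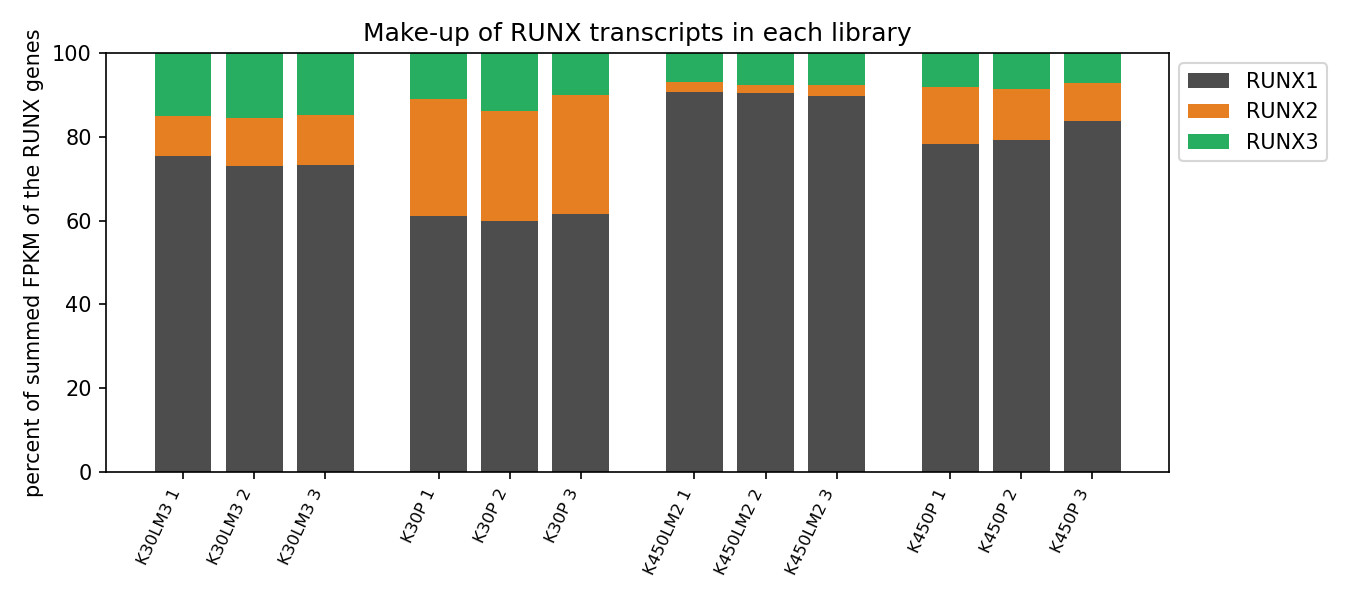
Each bar is 1 library, and its parts are the percent of the summed FPKM of *RUNX1*, *RUNX2* and *RUNX3* that each gene holds. The *RUNX2* part averages 11.0% in K30LM3 and 27.4% in K30P, and 2.39% in K450LM2 and 11.6% in K450P.

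Genes that overlap *RUNX2* or lie beside it were examined next, since reads of overlapping genes can be divided between them. *RUNX2* (ENSG00000124813, plus strand of chromosome 6) overlaps an antisense gene listed as *RP1-244F24* (ENSG00000271857) and *SUPT3H*, which encodes a subunit of the SAGA and related transcription coactivator complexes, both on the minus strand. It also overlaps the minus-strand noncoding gene *RP1-166H4*, which averaged at most 0.0133 FPKM in any group. The library kit keeps strand, but the strand setting of the counting is not given in the sources used here. *RP1-244F24* had 0.13, 0.3 and 0.27 FPKM in K30LM3, against 2.13, 2.11 and 2.18 FPKM in K30P, and fell in K30LM3 with a log2 difference of −2.79 (standard error 0.282, limma adjusted p = 8.48e-05). It had 0.62, 0.52 and 0.35 FPKM in K450LM2, against 1.19, 0.87 and 1.13 FPKM in K450P, too low to be tested there. The selected libraries were thus below the parental ones in both lines for the antisense gene as for *RUNX2*, and whether its reads have a part in the *RUNX2* values was not tested.

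*SUPT3H* had 3.76, 3.6 and 2.87 FPKM in K30LM3, against 5.97, 6.39 and 6.94 FPKM in K30P, a log2 difference of −0.90 (limma adjusted p = 0.000384) that is under 2-fold. In KYSE450 it had 9.63, 9.76 and 8.73 FPKM in K450LM2, against 8.67, 8.7 and 8.51 FPKM in K450P, a log2 difference of 0.12 (limma adjusted p = 0.255). The 2 overlapping genes thus differed from each other in KYSE450, where *RUNX2* was lower in K450LM2 and *SUPT3H* did not pass the test.

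Of the 10 tested genes nearest to *RUNX2* in chromosomal order, 5 on each side, 3 were called lower in K30LM3 and none higher, where 5.78% of all tested genes were called lower, with a median log2 difference of −0.87. The called genes were *RP1-244F24*, *CLIC5*, an intracellular chloride channel protein gene with a log2 difference of −3.14 (limma adjusted p = 1.84e-05), and *ENPP5*, an ectonucleotide pyrophosphatase family gene with −1.35 (limma adjusted p = 5.3e-05). The genes beyond *RUNX2* on that side, *ENPP4* and *CYP39A1*, had log2 differences of −0.87 and −0.87 and were not called. On the other side, *CDC5L*, *AARS2*, *NFKBIE* and *SLC35B2* lay between −0.09 and 0.19. In K450LM2, 6 of the 10 neighbours were tested and none was called (0 of 6 by limma, with 2 at an unadjusted p below 0.05), with log2 differences of −0.31 to 0.12. In KYSE30, *RP1-244F24* and *CLIC5* passed the filter of 1 FPKM only through K30P, so they could only be called lower. *RP1-244F24* also overlaps *RUNX2*. These neighbours were named after their values were seen, so nothing is read from their counts.

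**Figure D3:**
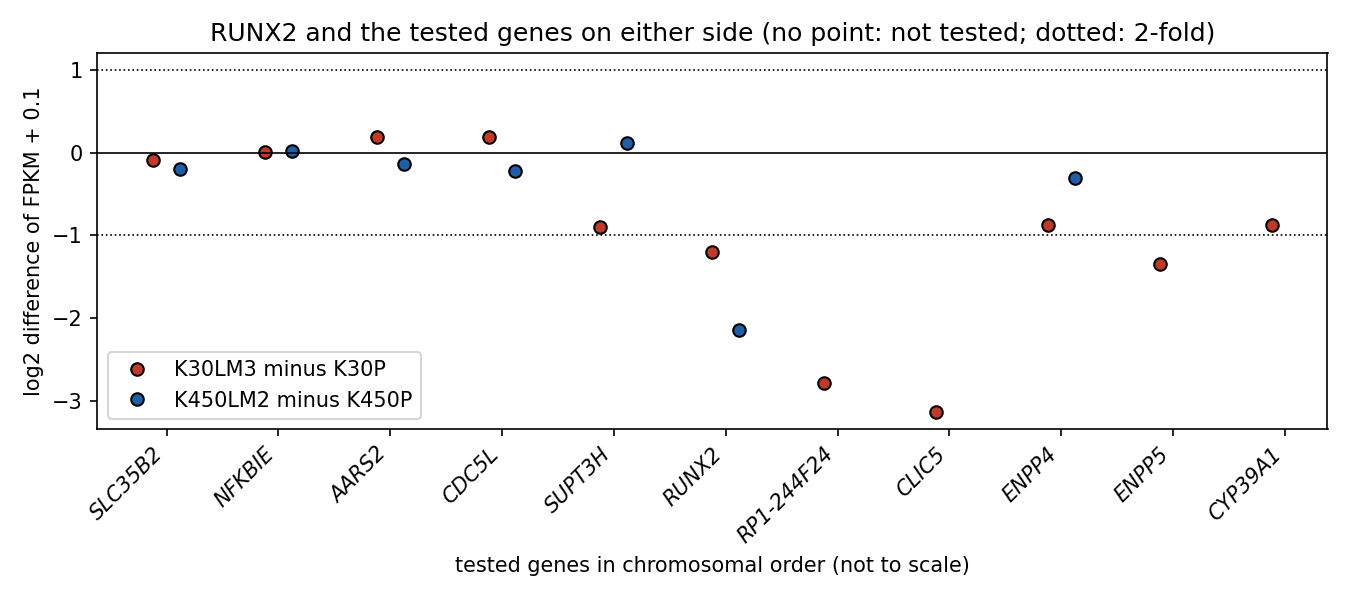
The x axis gives *RUNX2* and the 10 nearest tested genes in chromosomal order, not to scale, and the y axis the log2 difference of FPKM + 0.1 in each line. In K30LM3 *SUPT3H* is at −0.90 and the genes to the right of *RUNX2* lie between −3.14 and −0.87, while the K450LM2 points of the tested neighbours stay between −0.31 and 0.12 and *RUNX2* is at −2.15.

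Around the other members, single genes were called, where 8.39% of all tested genes were called in K30LM3 and 3.28% in K450LM2. With so few neighbours nothing is read from these counts. For *RUNX1* (chromosome 21) 1 of 10 neighbours was lower in K30LM3 and 1 of 10 in K450LM2. For *RUNX3* (chromosome 1) none was called, 0 of 10 in K30LM3 and 0 of 9 in K450LM2 by limma, with 5 and 2 at an unadjusted p below 0.05. *CBFB* (chromosome 16) has *CES4A*, a carboxylesterase gene, as its nearest tested neighbour on one side. It had 1.55, 1.03 and 1.84 FPKM in K30LM3, against 3.19, 3.1 and 2.89 FPKM in K30P, and 1.47, 1.08 and 1.31 FPKM in K450LM2, against 0, 0.08 and 0.03 FPKM in K450P. It was called lower in K30LM3 (log2 difference −1.04, limma adjusted p = 0.00282) and higher in K450LM2 (3.37, limma adjusted p = 0.000665), although with a pseudocount of 1 (−0.73), quantile normalization (−0.80) or median centering (−0.99) the K30LM3 value was under 2-fold. The K450LM2 value of *CES4A* was 1.14 with a pseudocount of 1. In KYSE450 *CES4A* passed the filter only through K450LM2, so it could only be called higher there. The other 9 neighbours of *CBFB* were not called in either line.

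To place the members among the genes they work with, lists of partners, regulators and targets were taken from general knowledge of RUNX biology in human and mouse. They were written with earlier results of these data known. Of 34 cofactors and modifying enzymes, which include the Groucho-related corepressors TLE1 to TLE4, histone acetyltransferases and deacetylases and the coactivators YAP1 and WWTR1, 33 were tested in KYSE30 and 32 in KYSE450. In K30LM3, 1 was called lower and 0 higher (3.03%, against 8.39% of all tested genes), and 20 had an unadjusted p below 0.05. The median log2 difference was 0.05, against −0.05 over all tested genes. In K450LM2, 0 were called by limma (against 3.28% of all tested genes) and 15 had an unadjusted p below 0.05, with a median of −0.03 against 0.02. The share of all tested genes at an unadjusted p below 0.05 is not given here, so nothing is read from these counts. The called gene was *CBFA2T3*, a corepressor gene of the ETO family, with 1.23 ± 0.236 FPKM in K30LM3 and 2.92 ± 0.463 FPKM in K30P (log2 difference −1.19, limma adjusted p = 0.000923). It was under 2-fold after quantile normalization (−0.93) and with a pseudocount of 1 (−0.81). In KYSE450 its mean was 0.0767 FPKM in K450LM2 and 0.05 FPKM in K450P.

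Of 24 genes known to act on RUNX2 or to switch it on, 18 were tested in each line. In K30LM3, 1 was called higher and 3 lower (22.2%, against 8.39% of all tested genes), and in K450LM2, 1 was called higher and 0 lower (5.56%, against 3.28%). The median log2 difference was 0.10 in K30LM3 and 0.09 in K450LM2. The list was written with earlier results known, so nothing is read from these shares. *HEY1*, a Notch-induced repressor that binds RUNX2, fell to 2.07 to 2.56 FPKM in K30LM3, against 26.34 to 28.18 FPKM in K30P (log2 difference −3.46, limma adjusted p = 2.03e-07), and averaged 2.21 FPKM in K450LM2 and 2.07 FPKM in K450P. *BMP7*, a bone morphogenetic protein gene, fell to 5.3 ± 0.581 FPKM in K30LM3, against 16.6 ± 1.22 FPKM in K30P (log2 difference −1.63, limma adjusted p = 5.42e-06). It had 56.88 to 62.27 FPKM in K450LM2, against 82.61 to 96.9 FPKM in K450P, where its log2 difference of −0.55 was under 2-fold. *MSX2*, a homeobox repressor gene, fell to 22.8 ± 1.07 FPKM in K30LM3, against 48.4 ± 1.69 FPKM in K30P (log2 difference −1.08, limma adjusted p = 1.94e-06).

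The higher regulator in K30LM3 was *DLX3*, a homeobox activator gene, with 3.63 ± 0.0907 FPKM in K30LM3 and 1.38 ± 0.211 FPKM in K30P (log2 difference 1.34, limma adjusted p = 0.000117, or 0.96 and under 2-fold with a pseudocount of 1). In K450LM2 it was *FGFR1*, a fibroblast growth factor receptor gene, with 4.51 ± 0.622 FPKM in K450LM2 and 2.08 ± 0.242 FPKM in K450P. Its log2 difference of 1.07 (limma adjusted p = 0.000996) was at or under 2-fold with a pseudocount of 1 (0.83), after quantile normalization, and without K450P replicate 1 or K450LM2 replicate 3.

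Most skeletal target genes of RUNX2 were barely transcribed in these cells. Of 16 listed, 3 were tested in each line, and osteoblast markers such as *SP7* (osterix) and *IBSP* (bone sialoprotein) averaged at most 0.0133 and 0.223 FPKM in any group. The 3 tested genes were *COL1A1*, *VEGFA* and *SPP1* in KYSE30, and *COL1A1*, *VEGFA* and *MMP13* in KYSE450. *COL1A1*, a type I collagen gene, averaged 3.1 FPKM in K30LM3 and 5.66 FPKM in K30P, and 3.51 FPKM in K450LM2 and 3.0 FPKM in K450P, and was not called. *VEGFA*, the vascular endothelial growth factor gene, averaged 13.8 FPKM in K30LM3 and 16.8 FPKM in K30P, and 25.2 FPKM in K450LM2 and 36.0 FPKM in K450P, and was not called. The called gene was another one in each line. *SPP1*, which encodes osteopontin, fell to 3.18, 1.85 and 1.95 FPKM in K30LM3, against 51.89, 49.97 and 50.04 FPKM in K30P (log2 difference −4.43, standard error 0.179, limma adjusted p = 1.12e-06), and stayed at or below 0.29 FPKM in every KYSE450 library. *MMP13*, which encodes collagenase 3, fell to 8.8, 8.11 and 8.18 FPKM in K450LM2, against 51.86, 45.15 and 48.51 FPKM in K450P (log2 difference −2.52, standard error 0.0648, limma adjusted p = 2.83e-07), and stayed at or below 0.2 FPKM in every KYSE30 library. *SPP1* and *MMP13* were thus each called lower in the line where they were transcribed, so that 1 of 3 tested targets was called lower in each line, against 5.78% and 1.27% of all tested genes. The median log2 difference of the 3 was −0.87 in K30LM3 and −0.51 in K450LM2. The fall of *SPP1* was known when the list was written, and a list of 3 tested genes shows nothing particular to it.

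Of 15 genes regulated by RUNX1 or RUNX3 in blood cells and epithelia, 6 were tested in KYSE30 and 5 in KYSE450, and in each line 1 was called higher and 1 lower. This is 33.3% in K30LM3, against 8.39% of all tested genes, and 40.0% in K450LM2, against 3.28%, with a median log2 difference of −0.28 in both. With so few tested genes, and a list written with earlier results known, nothing is read from these shares. *CLDN1*, a tight junction gene reported as a RUNX3 target in gastric epithelium, went opposite ways. It fell to 46.3, 48.98 and 50.2 FPKM in K30LM3, against 102.02, 104.06 and 102.36 FPKM in K30P (log2 difference −1.08, limma adjusted p = 6.42e-07). It rose to 75.6, 70.94 and 69.11 FPKM in K450LM2, against 34.05, 29.71 and 29.42 FPKM in K450P (log2 difference 1.21, limma adjusted p = 1.11e-05). *CDKN1A*, the p21 cell cycle inhibitor gene, fell to 4.88 ± 0.443 FPKM in K450LM2, against 12.9 ± 0.33 FPKM in K450P (log2 difference −1.39, limma adjusted p = 1.59e-05), and was under 2-fold in K30LM3 (−0.35). *TCF7*, a T cell factor gene, rose to 2.63 ± 0.139 FPKM in K30LM3, against 1.14 ± 0.0416 FPKM in K30P (log2 difference 1.14, limma adjusted p = 0.000209, or 0.76 and under 2-fold with a pseudocount of 1).

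Among 15488 genes, those whose profile over the 12 libraries came nearest to a member's were found by the root mean square distance of log2 values, each gene centered on its own mean. Nearest to *RUNX2* were *PROC*, the protein C gene, at a distance of 0.293, *IGSF3*, an immunoglobulin superfamily gene, at 0.301, and *RP11-513I15* at 0.462, where the spread of *RUNX2* itself was 0.936. *IGSF3* averaged 11.3 FPKM in K30LM3 and 24.9 FPKM in K30P, and 7.37 FPKM in K450LM2 and 20.2 FPKM in K450P. The profile of *RUNX1* was followed at 0.054 by *AARS* and at 0.062 by *CARS*, which encode alanyl- and cysteinyl-tRNA synthetase, and at 0.058 by *RANBP6*. Those of *CBFB* were *POC1A* at 0.085, *RAD51AP1*, a homologous recombination gene, at 0.086 and *CRELD2* at 0.087, and those of *RUNX3* were *GTF3C6*, *SBDS* and *MRPL50* at 0.125 to 0.132. Within the family, *RUNX3* and *CBFB* were the nearest pair at 0.208, and *RUNX2* lay 1.028 or more from each of the others. The spreads of *RUNX3* and *CBFB* themselves were only 0.25 and 0.283, so 2 rather flat profiles lie near each other in any case. These distances rest on 4 groups and are descriptions of these libraries.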

How the data were processed

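The deposited table gives FPKM per gene for the 12 libraries, made by the authors from poly(A) RNA and a directional kit. According to the methods the authors aligned reads with STAR 2.5.1b and the authors used edgeR 3.8.5 for abundances. RSEM 1.2.29, Trimmomatic 0.36, FastQC and the build hg19 are listed in the submitters' processing notes. The scaling between libraries and the strand setting of the counting are not given in the sources used here. Depth was estimated from the steps of low values in genes with 1 transcript in GENCODE (30584 genes), at a fragment length of 210. After limits on transcript length and level, 1172 to 1568 values per library were used.

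Here limma 3.58.1 (R 4.3.3; lmFit, eBayes with a trend) was run on log2(FPKM + 0.1) for the 6 libraries of each pair, over genes with at least 1 FPKM in at least 3 libraries, two-sided with Benjamini-Hochberg adjustment over all tested genes. The difference between the lines was a contrast over all 12 libraries. The procedure was tested on simulated data. Results were recomputed with libraries left out in turn, with the replicate number as a block, without the trend, with another pseudocount (0.01 or 1), with the filter dropped or raised to 5 FPKM, and after scaling the libraries by quantiles or by their medians. The pairwise contrasts were also taken from a joint fit of the 12 libraries, and their counts of called genes at 1.5-fold. The exact permutation test was not used, since 3 libraries against 3 cannot pass 0.05.

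The members and lists were chosen with earlier results of these data known. Named genes are the 4 members, the 3 nearest profiles of each, and up to 5 called genes per list, line and direction. The other named genes were chosen after their values were seen. Gene order came from GENCODE v29 on GRCh38, so no coordinates of genes are given.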

Additional observations from a re-analysis of the deposited data

Results flagged for a closer look

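The change in KYSE450 (K450LM2 minus K450P) less the change in KYSE30 (K30LM3 minus K30P) was scanned by the limma contrast over all 12 libraries. The scan covered the RUNX lists and some of the other genes named here. It passed an adjusted p of 0.05 and 2-fold for 20 of 88 tested genes, where 12.3% of all 15366 tested genes passed. The lists were written with earlier results known and the neighbours were named after their values were seen, so nothing is read from this count. Positive values mean a higher, or less lowered, level in K450LM2. Among the RUNX lists the difference was 1.40 for *CBFA2T3*, 1.12 for *TLE2*, −1.27 for *TLE4*, 1.47 for *DLX5*, 3.57 for *HEY1*, 1.08 for *BMP7*, 1.61 for *MSX2*, 1.03 for *FGFR1*, 4.48 for *SPP1*, 1.09 for *COL1A1*, −3.17 for *MMP13*, 2.29 for *CLDN1* and −1.04 for *CDKN1A*. Among the chromosomal neighbours it was 1.81 for *RP1-244F24*, 1.02 for *SUPT3H*, 3.22 for *CLIC5*, 1.70 for *ENPP5*, 3.75 for *CYP39A1* and 4.42 for *CES4A*, and for the keratin gene *KRT5* it was −6.68. The markers *KRT14* (1.39) and *CDH5* (1.90) were outside this scan and also passed both thresholds. *CDH5* averaged 0.11 FPKM in K450LM2 and 0.00667 FPKM in K450P.

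With a pseudocount of 1 the difference was under 2-fold for *CBFA2T3* (0.85), *TLE2* (0.88), *DLX5* (0.44, limma adjusted p = 0.0656), *COL1A1* (0.89), *BMP7* (0.94), *FGFR1* (0.80), *CDKN1A* (−0.90), *RP1-244F24* (0.89) and *SUPT3H* (0.86). After quantile normalization it was under 2-fold for *SUPT3H* (0.85), *TLE2* (0.90), *COL1A1* (0.86), *FGFR1* (0.82), *CDKN1A* (−0.97) and *CBFA2T3* (0.88, limma adjusted p = 0.0527), and with median centering for *SUPT3H* (0.93), *FGFR1* (0.94) and *BMP7* (0.99). *SPP1*, *CBFA2T3* and *CLIC5* are near 0 FPKM in KYSE450 and *MMP13* in KYSE30, so their values compare a line that transcribes the gene with one that hardly does. *CYP39A1* and *CES4A* averaged 0.02 and 0.0367 FPKM in K450P, *KRT5* 0.103 FPKM in K30P and *DLX5* 0.233 FPKM in K30LM3. The size of their differences thus depends on the pseudocount. With a pseudocount of 1 it was 1.47 for *CYP39A1*, 1.87 for *CES4A* and −4.20 for *KRT5*.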

How the results depend on the processing

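Over 14 alternatives the *RUNX2* difference ran from −1.26 to −0.86 in K30LM3 and from −2.31 to −1.34 in K450LM2, as a description of the values it was chosen for. With a minimum of 5 FPKM *RUNX2* and *RUNX3* were not tested. The signs of the K30LM3 and K450LM2 values of *RUNX1*, *RUNX3* and *CBFB* also held under every alternative in which the gene was tested. The counting error of the low values, among them *RUNX2* in K450LM2, *RUNX3* and the antisense gene, was not computed.

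Beyond the values given for *RUNX2* (K30LM3 −0.86 with a pseudocount of 1 and −0.98 with quantile normalization, K450LM2 −1.34, parental 0.19 and 0.08), quantile normalization moved K30LM3 minus K30P to 0.42 for *RUNX1* and 0.71 for *RUNX3*. It moved K450P minus K30P to 1.70 for *RUNX1*, 0.91 for *RUNX3* and 0.65 for *CBFB*. The same difference was 1.72 for *RUNX1* and 0.75 for *CBFB* with median centering, and 1.39 for *RUNX1* with a pseudocount of 1. The difference between the lines' changes was −0.34 for *RUNX1*, −1.31 for *RUNX2* and −0.93 for *RUNX3* with quantile normalization, −0.31 for *RUNX1* with median centering, and −0.47 for *RUNX2* and −0.39 for *RUNX3* with a pseudocount of 1. The cause was not tested.

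Called genes in K30LM3, 1191 as reported, were 3229 at 1.5-fold, 630 with a pseudocount of 1, 1965 without the filter and 501 at a minimum of 5 FPKM. In K450LM2, 453 became 1025, 270, 747 and 186. Between the parental lines, 5203 became 8068 at 1.5-fold and 3339 at a minimum of 5 FPKM. For the difference between the lines, 1889 became 1031 with a pseudocount of 1 and 1008 at a minimum of 5 FPKM. The split of higher and lower calls was 371 and 820 in K30LM3, or 485 and 549 with quantile normalization, and 1966 and 3237 in K450P against K30P, or 2542 and 2613 with quantile normalization and 2642 and 2630 with median centering.

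The count of called cofactors in K30LM3 was 0 with a pseudocount of 1, a minimum of 5 FPKM or quantile normalization. That of called regulators in K450LM2 was 0 under the same 3 settings and ranged from 0 to 1 with a library left out. Called skeletal targets numbered 1 to 2 in K30LM3 with a library left out (2 without K30LM3 replicate 1) and 2 in K450LM2 without the filter. Called RUNX1 and RUNX3 targets in K30LM3 numbered 1 with a pseudocount of 1 or a minimum of 5 FPKM.

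Deviations from the group means correlated at −0.0725 to 0.111 between same-numbered libraries and at −0.0729 to 0.0892 between differently numbered ones. In KYSE450 the same-numbered values were 0.111, 0.039 and 0.0305. The libraries were treated as unpaired, although such correlations with 3 libraries per group cannot exclude a pairing. With a replicate block the called genes numbered 1211 in K30LM3, 449 in K450LM2, 5231 between the parental lines and 1890 for the difference between the lines, and the *RUNX2* differences stayed at −1.20 and −2.15.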
